A study of Mus musculus with 12 samples.

Results

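Sarcomere and myofibre genes are the 42 genes of a fixed list that build, power and regulate the contractile machine of striated muscle. They were 42 of 18193 genes named on the array, read from the 72 probe sets, of 45101 in the table, whose single annotated symbol is one of these genes. The values come from side population cells, the dye-excluding fraction of a dissociated tissue, isolated from mouse extraocular muscle (EOM, the muscles that move the eye) and from tibialis anterior (TA, a hind limb muscle). Per the labels, 6 independently separated preparations of each muscle were hybridized, 1 per array, and the titles number them 0, 1, 2, 3, 5 and 6 in each group. Strain, age, treatment, and how many animals made up a preparation are not given in the labels used here, and no treatment is named for either group. The question is which transcripts set the eye muscle cells apart from the limb muscle cells, and this gene list gives the signal of fibre genes in each preparation.

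A myofibre contracts when calcium released from the sarcoplasmic reticulum binds troponin on the actin thin filament and lets myosin heads of the thick filament pull on it. Fast, slow and developing fibres use different genes for the same parts, so that the myosin heavy chain, light chain and troponin that are present identify the fibre type. Tibialis anterior is a mainly fast muscle, and adult extraocular muscle is known for keeping the embryonic and perinatal myosins Myh3 and Myh8 beside the fast and slow ones. Side population cells are single cells, unlike the multinucleate fibres around them.

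Every value below is an array signal, the authors' single number per probe set on a linear scale, with every array scaled to 1 trimmed mean. A signal is never 0, and probe sets of genes without transcript still give a low number. Where a gene had several probe sets, the one with the highest mean log2 level over the 12 arrays stands for it, and probe sets in the lowest 40% by that mean were not tested. Tests were made with limma on log2(signal + 16), over 27022 probe sets, and a gene is said to have passed where its Benjamini-Hochberg adjusted p was under 0.05. Fold changes are log2, EOM minus TA, with the moderated SE, and the added 16 shrinks those of dim genes.

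Every array had the same trimmed mean, but the arrays differed in their median over all probe sets. Over the genes tested alone the median ran from 133.2 to 168.2 and was highest on TA 6. The median over all probe sets was 87.2 on EOM 1 and 32.2 to 40.5 on the other EOM arrays, and it was 69.5 on TA 3, 63.1 on TA 5 and 31.1 to 43.4 on the other TA arrays. Results are therefore also given without EOM 1, or without EOM 1, TA 3 and TA 5. Other cell types differed widely between the groups. The summed signal of 12 endothelial markers was 1548 to 2764 in EOM and 10839 to 28379 in TA, that of 16 smooth muscle and pericyte markers 6717 to 11206 in EOM and 22862 to 40908 in TA, and that of 10 fibroblast markers 107609 to 205106 in EOM and 53321 to 91215 in TA. Of the 10 fibroblast markers 6 passed as higher in EOM and 0 as lower, where 4.05% of all genes tested were higher. Col1a1 (-0.84), Col1a2 (-0.09), Dcn (0.16) and Lum (1.54) did not pass. A further Col1a2 probe set passed as lower in EOM (-1.55 ± 0.38, limma adjusted p = 0.0140). Abcg2, the transporter that pumps out the side population dye, was present in both, averaging 650 ± 322 on the EOM arrays and 2668 ± 728 on the TA arrays (SD, n = 6 each).

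Most sarcomere and myofibre genes had low signal in both side populations. Of the 42 genes, 20 lay below the level filter and 22 were tested. The median signal of the 42 was between 17.7 and 71.8 on the EOM arrays and between 27.05 and 59.65 on the TA arrays. Between 26.2% and 45.2% of the genes exceeded the array's own median on EOM arrays, and between 38.1% and 61.9% did so on TA arrays, while 58.7% to 63.8% of all 18193 named genes did. In 28 of the 42 the signal stayed under 200 on all 12 arrays. Only Atp2a2, a calcium pump that nearly all cell types express, exceeded 100 on all 12.

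In the fit across all probe sets 4 sarcomere and myofibre genes fell in EOM and 0 rose: Casq2, Myom1, Acta1 and Pygm. Across all 13067 genes tested, 6.81% fell and 4.05% rose, 10.9% in all. With no level filter all 42 genes were tested, and the same 4 fell and 0 rose, where 4.26% of 18193 genes fell. The median log2 fold change was -0.68 over the 22 genes tested and -0.31 over all 42 in the fit without a filter, against -0.04 and -0.03 over all genes. Of the 22 estimates 16 were below 0, where 53.1% of all genes tested were. At an unadjusted p under 0.05, 9 of the 22 were lower and 0 higher. The share of all genes at that threshold was not counted, so this count cannot be read against it. In this bulk RNA, fewer cells of a type and less RNA per cell cannot be told apart.

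**Figure D1:**
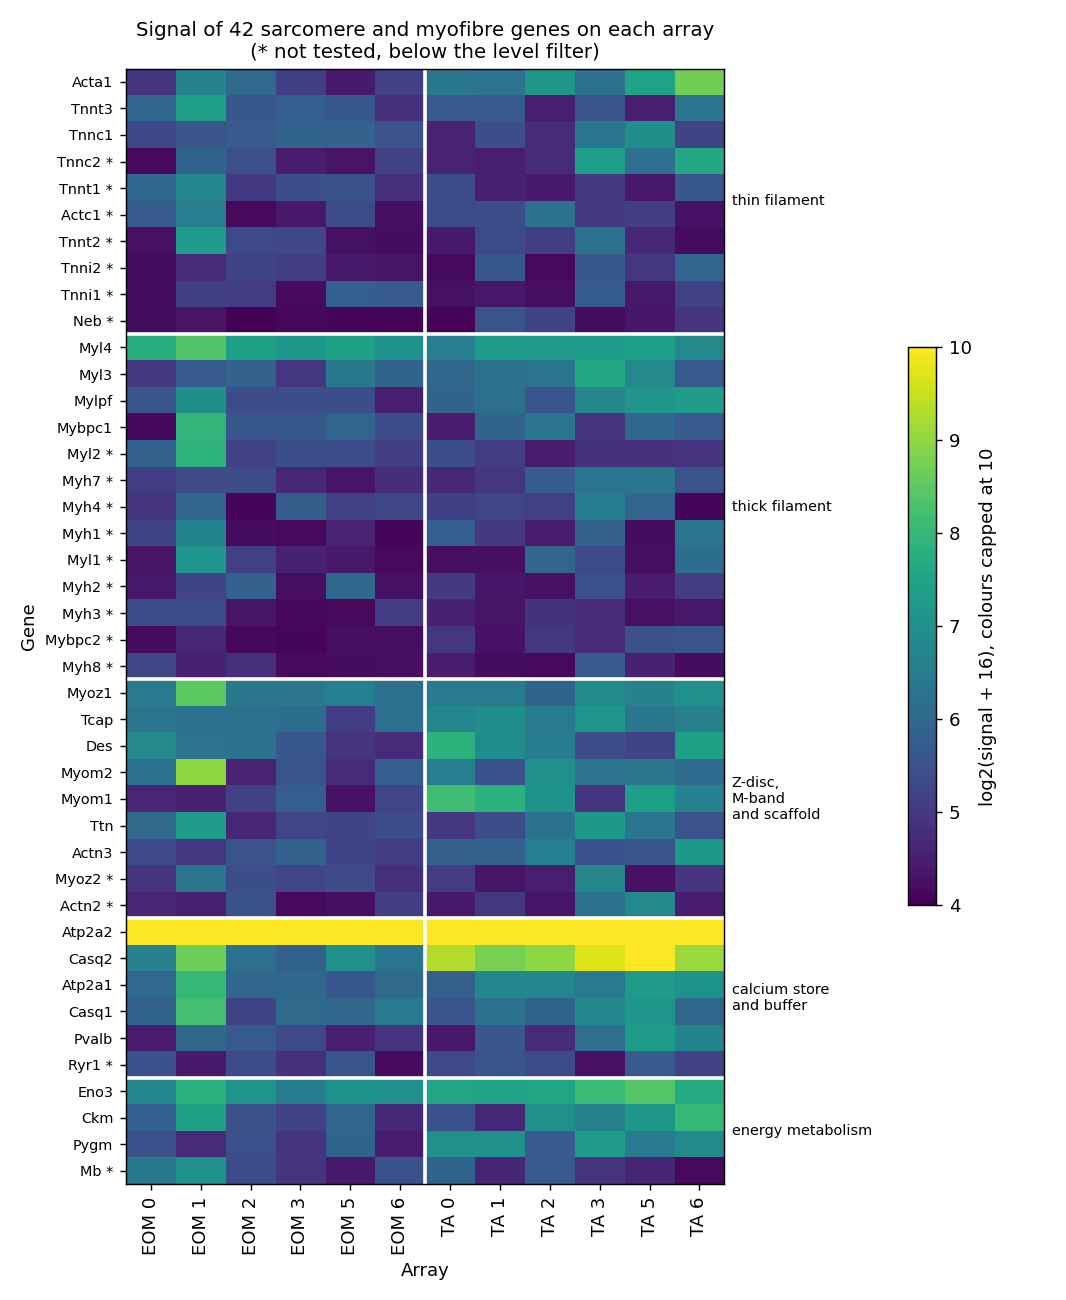
Signal of each of the 42 genes (rows, grouped by role) on each of the 12 arrays (columns, EOM left and TA right), as log2(signal + 16). Atp2a2 and, in TA, Casq2 are the bright rows, most others are near the lower end of the scale, and EOM 1 is brighter than the other EOM arrays in many rows.

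Casq2 was the one calcium store gene that fell. It encodes the calsequestrin of heart and slow skeletal muscle, which holds calcium inside the sarcoplasmic reticulum, and is also known from smooth muscle. Its signal was 41.8 at the lowest, 75.25 at the median and 394.5 at the highest in EOM, against 417.8, 572.95 and 1107 in TA. No EOM array reached a TA array, and the highest EOM value, on EOM 1, lay just under the lowest TA value, on TA 1. Casq2 was lower by a log2 fold change of -2.53 ± 0.40 (limma adjusted p = 0.000387), and -2.91 ± 0.28 (adjusted p = 6.69e-07) without EOM 1. All 24 alternative fits kept the call. The probe set carries a suffix that marks probes shared by several transcripts. Most markers of vessel cells were also lower in EOM. Of 14 smooth muscle and pericyte markers tested, 12 fell and 0 rose, with a median of -2.20, and of 12 endothelial markers 10 fell and 0 rose, with a median of -2.97. The 3 smooth muscle and pericyte markers with the largest change were the smooth muscle myosin Myh11 (-4.03), the chloride channel Ano1 (-3.97) and the pericyte regulator Rgs5 (-3.96). On TA 0, TA 1, TA 2, TA 3, TA 5 and TA 6, in that order, Casq2 was at 614.7, 417.8, 489, 815.7, 1107 and 531.2. Smooth muscle actin Acta2 was at 11657, 11471, 4896, 6270, 6142 and 3788 on the same arrays. The part of vessel cells in the Casq2 difference was not tested.

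The skeletal calsequestrin Casq1, the partner gene of fast fibres, did not pass. It had 21.7, 49.5 and 281.1 in EOM and 32.0, 54.35 and 123.1 in TA (lowest, median and highest), with EOM 1 above every other array. Its log2 fold change was 0.03 ± 0.43 (adjusted p = 0.983), and it turned to -0.35 ± 0.33 (adjusted p = 0.532) without EOM 1. The difference between the 2 calsequestrins was not tested.

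Atp2a2, the SERCA2 pump that refills the store in slow and cardiac muscle and, as another splice form, in most cells, had the strongest signal of the list. It ran from 1326 through a median of 2657 to 3164 in EOM, against 1527, 2632 and 4909 in TA, so that the groups overlapped almost fully. On the log2 scale its fold change was -0.19 ± 0.31 (limma adjusted p = 0.835), and its 5 further tested probe sets ran from -0.22 to 0.59 with none past the threshold. Atp2a1, the SERCA1 pump of fast fibres, had a signal of 33.5 to 51.6 on 5 EOM arrays and 240.6 on EOM 1, against 41.3 to 143.7 in TA. Atp2a1 passed neither with all arrays (-0.43 ± 0.38, adjusted p = 0.633) nor without EOM 1 (-0.77 ± 0.29, adjusted p = 0.0780). Pvalb, the parvalbumin that buffers calcium in fast fibres, ranged from 5.9 to 47.8 in EOM and from 5.1 to 137.7 in TA (-0.67 ± 0.49, adjusted p = 0.524). Ryr1, the release channel of skeletal muscle, was below the filter, at 2.2 to 32.9 in EOM and 3.4 to 37.1 in TA.

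Among the 10 thin filament genes Acta1 fell and the others did not pass or were not tested. Acta1, skeletal muscle actin, had a signal of 5.5 at the lowest, 19.15 at the median and 84.6 at the highest in EOM, against 59.9, 98.65 and 398.6 in TA. EOM 1 was the one EOM array inside the TA range, and TA 6 stood far above the other TA arrays. Its log2 fold change was -1.66 ± 0.46 (limma adjusted p = 0.0292), and -2.27 with a constant of 1 or -1.004 with 64. It was -1.91 ± 0.42 (adjusted p = 0.00357) without EOM 1 and -1.33 (adjusted p = 0.0716) without TA 6. Of the 12 fits that left out 1 array, 7 ended the call: those without EOM 0, EOM 3, EOM 5, EOM 6, TA 2, TA 5 or TA 6, with an adjusted p of 0.0603 to 0.0727. The replicate block (adjusted p = 0.0583) and median centring (adjusted p = 0.0661) ended it too. Acta1 has a single probe set here. Its coding sequence is similar to that of Acta2, which averaged 478 ± 177 on the EOM arrays and 7371 ± 3373 on the TA arrays (SD, n = 6 each). From TA 0 to TA 6, in the order used above, Acta1 was at 68.4, 62.5, 128.9, 59.9, 161.2 and 398.6. Acta2 was at 11657, 11471, 4896, 6270, 6142 and 3788 on the same arrays. Whether Acta2 transcript contributed to the Acta1 signal was not tested.

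Actc1, the cardiac actin that developing skeletal muscle also uses, was below the filter. Its signal ran from 1.9 to 78.4 in EOM and from 3.6 to 59.9 in TA. Of the troponins, Tnnt3 of fast fibres (12.8 to 145.7 in EOM, 6.6 to 63.1 in TA) had a log2 fold change of 0.50 ± 0.44 (limma adjusted p = 0.618). Tnnc1, the calcium-binding troponin of slow and cardiac muscle, had 23.4 to 44.1 in EOM and 8.3 to 111.5 in TA (0.10 ± 0.41, adjusted p = 0.947). Tnnc2, its fast counterpart, was just below the filter. It was at 1.8 to 45.5 in EOM, and at 6.8 to 11.1 on TA 0, TA 1 and TA 2 but 146.2, 57.4 and 181.1 on TA 3, TA 5 and TA 6. The inhibitory subunits Tnni1 and Tnni2, the tropomyosin-binding Tnnt1 and Tnnt2 and the giant ruler protein Neb were all below the filter, and none of them exceeded 139.8 on any array. That highest value was Tnnt2 on EOM 1, and the next EOM value of Tnnt2 was 24.5.

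No thick filament gene passed, and none of the 6 myosin heavy chains reached the level filter. The heavy chains are the motors that set fibre speed, and they are the defining genes of a fibre type. Myh4, the fastest form, had a signal of 0.8 to 46.4 in EOM and 1.0 to 77.3 in TA. Myh1 was at 0.9 to 88.4 in EOM and 2.3 to 63.5 in TA, and Myh2 at 2.8 to 49.1 in EOM and 3.3 to 28.2 in TA. The slow and cardiac form Myh7 was at 4.4 to 26.8 in EOM and 9.9 to 64.2 in TA. The embryonic Myh3 had 1.5 to 26.7 in EOM and 3.4 to 13.3 in TA, and the perinatal Myh8 had 2.0 to 22.8 in EOM and 1.8 to 36.5 in TA. The groups overlapped in all 6, so that neither the limb pattern of fast myosins nor the developmental myosins known from eye muscle fibres was detectable as a difference at this signal.

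Of the light chains, Myl4, the embryonic and atrial form, had the highest signal. It was at 116.3, 155.95 and 316.2 in EOM (lowest, median and highest) and at 78.9, 140.15 and 150 in TA. Its fold change was 0.43 ± 0.28 on the log2 scale (limma adjusted p = 0.444). Mylpf, the regulatory light chain of fast fibres, had 7.0, 27.4 and 111.8 in EOM against 31.6, 75.85 and 140.1 in TA. Only EOM 1 and EOM 0 reached the TA range. Over all 12 arrays Mylpf did not pass (-0.91 ± 0.41, adjusted p = 0.219), and it passed without EOM 1 (-1.20 ± 0.36, adjusted p = 0.0264) but not without EOM 1, TA 3 and TA 5 (-0.96 ± 0.36, adjusted p = 0.0745). Myl3, of slow and ventricular muscle, had 14.8 to 69.0 in EOM and 35.2 to 175.9 in TA (-0.81 ± 0.37, adjusted p = 0.227). Myl1 and Myl2 were below the filter, each with its highest signal of all arrays on EOM 1, at 126.5 and 220.1. Mybpc1, the myosin-binding protein of slow fibres, also peaked there, at 231.8 against 1.5 to 46.2 on the other EOM arrays and 6.5 to 65.4 on the TA arrays. Its fold change of 0.22 ± 0.52 (adjusted p = 0.892) turned to -0.21 without EOM 1. Mybpc2, the fast form, was below the filter at 0.9 to 9.3 in EOM and 3.7 to 31.6 in TA.

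Myom1 fell among the 9 genes of the Z-disc, M-band and scaffold. It encodes myomesin, which links thick filaments at the M-band. Its signal was 3.5 at the lowest, 14.2 at the median and 40.5 at the highest in EOM, against 14.5, 134.65 and 268.1 in TA. On 5 of the TA arrays it was at least 85.7, above every EOM array, and TA 3 alone lay within the EOM range. It was lower by a log2 fold change of -2.06 ± 0.47 (limma adjusted p = 0.00863), and -2.39 ± 0.36 (adjusted p = 0.000127) without EOM 1, TA 3 and TA 5. The call held in all 12 fits that left out 1 array (highest adjusted p 0.0294), and median centring ended it (adjusted p = 0.0590). On every EOM array but EOM 3 its signal lay under 26.86, the highest mean level the filter removed. The size of the change depended on the added constant, at -2.92 with a constant of 1 and -1.22 with 64, and Myom1 passed with both. Myom2, the second myomesin, did not pass. Its signal was 493.4 on EOM 1 and 8.2 to 57.3 on the other EOM arrays, against 29.7 to 114.0 in TA (-0.33 ± 0.57, adjusted p = 0.847). Without EOM 1 its estimate was -0.94 ± 0.36 (adjusted p = 0.0870). Its probe set carries a suffix that marks probes which may bind other transcripts.

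Tcap, telethonin of the Z-disc, separated the groups without passing the test. It had 18.3, 58.0 and 64.5 in EOM against 65.9, 87.45 and 128.2 in TA, so that every EOM array lay below every TA array. The log2 fold change was -0.69 ± 0.29 (limma adjusted p = 0.179). Casq2 and Tcap were the 2 genes of the list whose groups did not overlap, both lower in EOM, where 4.8% of all genes tested had every EOM array below every TA array. Without EOM 1 there were 4 of the 22, with Acta1 and Eno3 added, where 7.65% of all genes did so.

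Des, the intermediate filament desmin of muscle, also found in smooth muscle and pericytes, had 10.4, 47.0 and 98.0 in EOM and 21.0, 90.6 and 217.2 in TA. Des passed neither with all arrays (-0.79 ± 0.48, limma adjusted p = 0.415) nor without EOM 1 (-0.89 ± 0.49, adjusted p = 0.240), and it passed without EOM 1, TA 3 and TA 5 (-1.52 ± 0.40, adjusted p = 0.0136). Its second tested probe set was at -0.04. Myoz1, the calsarcin that ties calcineurin to the fast Z-disc, had 56.7 to 79.9 on 5 EOM arrays and 343.6 on EOM 1, against 44.5 to 112.1 in TA (0.18 ± 0.37, adjusted p = 0.877). Actn3, the alpha-actinin of fast fibres, had 15.2 to 43.5 in EOM and 29.7 to 130.3 in TA (-0.76 ± 0.36, adjusted p = 0.244). It passed without EOM 1, TA 3 and TA 5 (-0.96 ± 0.32, adjusted p = 0.0487). Ttn, the titin spring, had 9.2 to 143.4 in EOM and 15.1 to 131.4 in TA (-0.30 ± 0.46, adjusted p = 0.826), and its 2 further tested probe sets were at -0.17 and 0.76. Actn2 and Myoz2 were below the filter.

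Pygm fell among the 4 genes of energy metabolism. It encodes muscle glycogen phosphorylase, which frees glucose units from glycogen during contraction. Its signal was 6.3, 21.05 and 45.2 in EOM against 37.2, 105.4 and 141.8 in TA (lowest, median and highest). EOM 5 was the one EOM array above the lowest TA array, TA 2. Pygm was lower by a log2 fold change of -1.57 ± 0.35 (limma adjusted p = 0.00777). The call held in all 23 alternative fits that tested Pygm (highest adjusted p 0.0359). Its size also depended on the constant, at -2.23 with 1 and -0.88 with 64.

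Eno3, the enolase of muscle glycolysis, had 75.8, 114.8 and 207.0 in EOM against 165.9, 181.35 and 321.4 in TA. EOM 1 alone reached the TA range. Over all 12 arrays it did not pass (-0.75 ± 0.27, limma adjusted p = 0.109), and it passed without EOM 1 (-0.90 ± 0.24, adjusted p = 0.0144). Ckm, the creatine kinase that is among the most abundant transcripts of a mature fibre, had 9.7, 34.15 and 153.1 in EOM against 9.7, 99.3 and 244.2 in TA. The lowest values were alike, and TA 6 was the highest. For Ckm the estimate was -0.77 ± 0.53 (adjusted p = 0.490), and its second tested probe set was at 0.19. Mb, the oxygen store myoglobin, was below the filter, at 5.5 to 118.3 in EOM and 1.7 to 44.7 in TA.

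**Figure D2:**
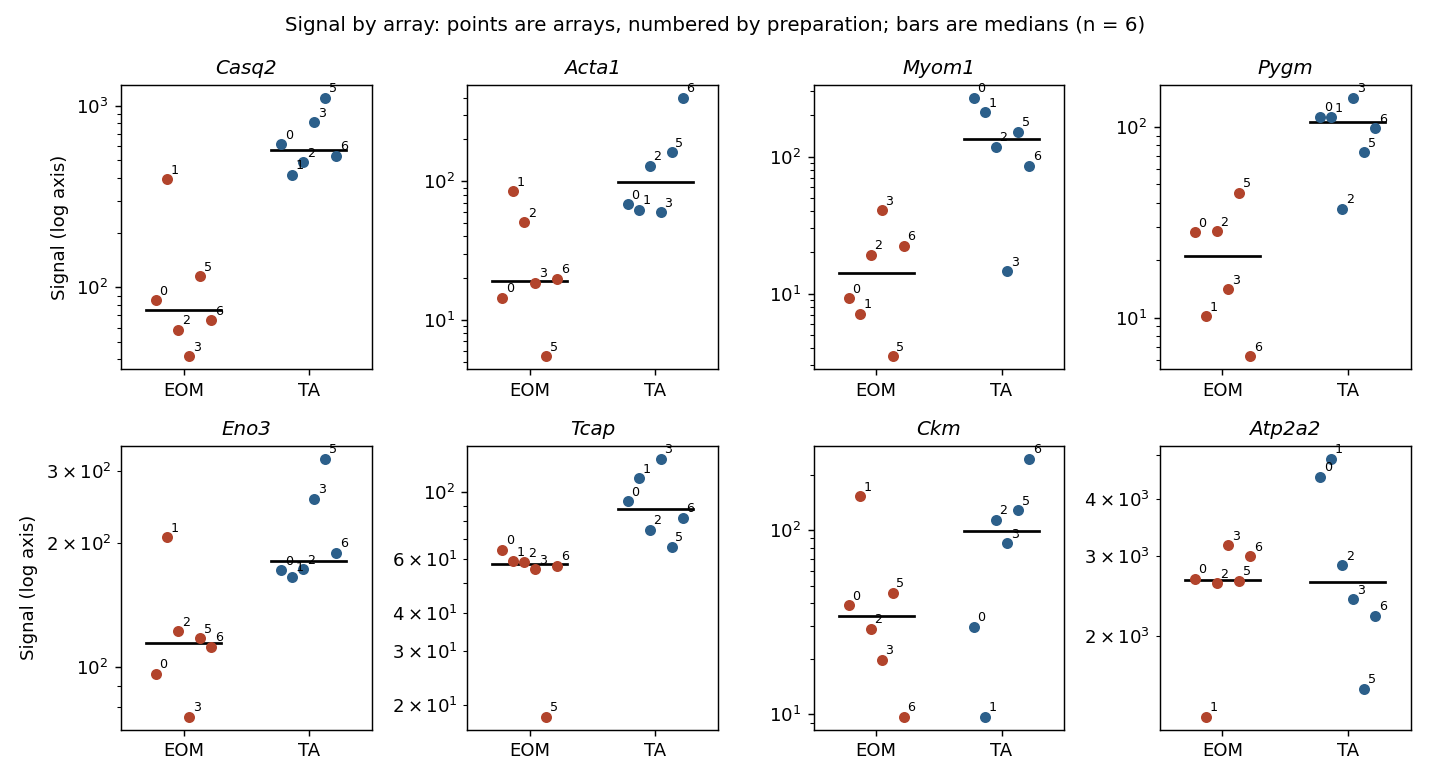
Signal (log axis) of the 4 genes that fell, Casq2, Acta1, Myom1 and Pygm, and of 4 that did not pass, in the EOM (left) and TA (right) arrays, numbered by preparation, with the group median as a bar. Casq2 and Tcap have no overlap between the groups, and EOM 1 is the highest EOM array for Casq2, Acta1, Eno3 and Ckm.

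**Figure D3:**
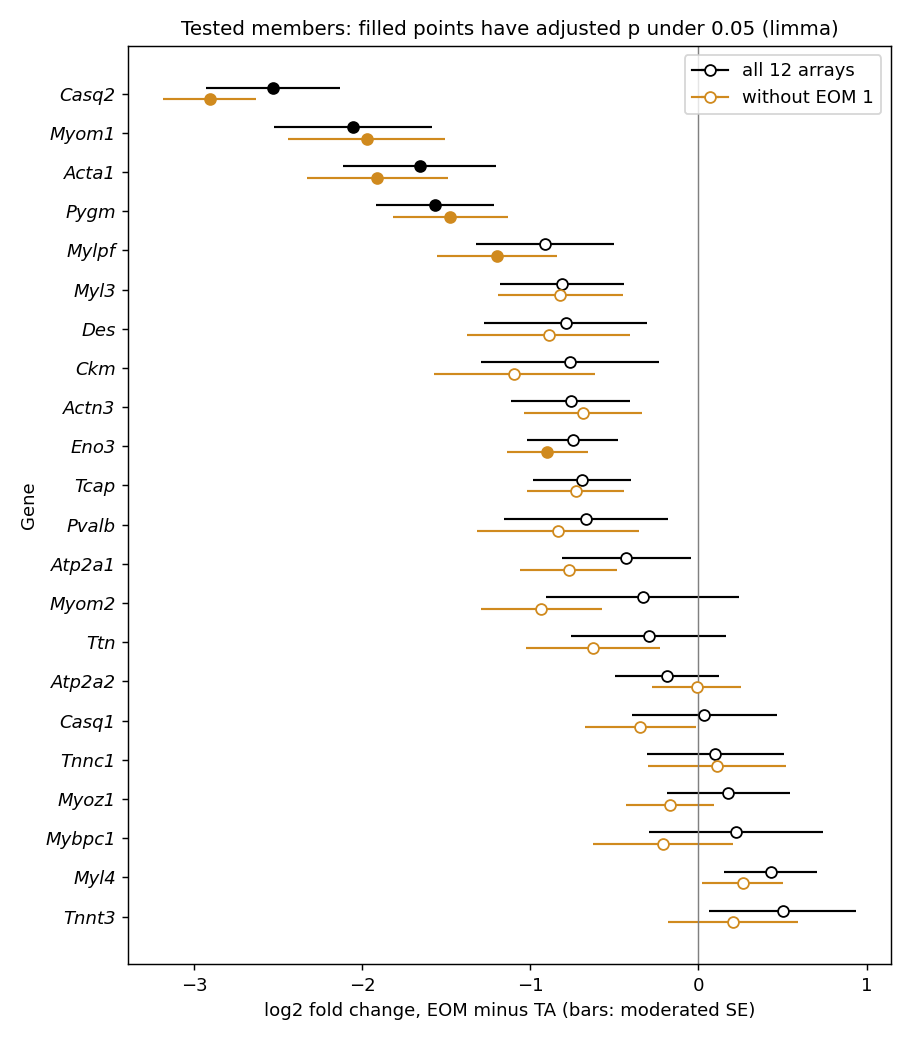
Log2 fold change, EOM minus TA, of the 22 genes tested, with the moderated SE, for all 12 arrays and without EOM 1. With all arrays 4 genes have filled points, and without EOM 1 Mylpf and Eno3 join them.

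Without EOM 1, then, 6 of 22 sarcomere and myofibre genes fell and 0 rose, where 10.6% of all genes tested fell. Without EOM 1, TA 3 and TA 5, 7 of 22 fell and 0 rose, where 11.3% of all genes fell. Casq2, Acta1, Myom1, Pygm and Eno3 were among them in both settings, while Mylpf was called in the first alone and Actn3 and Des in the second alone. By fibre class, in the fit of all 12 arrays, 7 of 14 genes of fast fibres were tested and 0 passed, with a median log2 fold change of -0.43. Of 10 genes of slow fibres 5 were tested and Casq2 fell (median -0.19), and of 13 genes shared by fibre types 9 were tested and 3 fell (median -0.77). Of the 5 developmental or cardiac genes Myl4 alone was tested. The differences between classes were not tested.

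The promoters of the 4 genes that fell are shown for the binding motifs of muscle regulators. Each is the stretch of 250 bases before the annotated start, from RefSeq on GRCm38.p6, 5′ to 3′ on the gene's strand. Capitals mark CAGCTG, the E-box form bound by MyoD-family factors, the CArG box, bound by serum response factor, and the MEF2 site. Each motif was searched on both strands, and no marked motifs overlap.
Acta1 (chr8:123894776-123895025, minus strand): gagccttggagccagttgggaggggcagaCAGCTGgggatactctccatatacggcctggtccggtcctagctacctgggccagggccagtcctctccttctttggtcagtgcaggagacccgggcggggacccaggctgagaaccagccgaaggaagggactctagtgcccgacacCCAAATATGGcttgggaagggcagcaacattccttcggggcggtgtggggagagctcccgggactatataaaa
Casq2 (chr3:102086165-102086414, plus strand): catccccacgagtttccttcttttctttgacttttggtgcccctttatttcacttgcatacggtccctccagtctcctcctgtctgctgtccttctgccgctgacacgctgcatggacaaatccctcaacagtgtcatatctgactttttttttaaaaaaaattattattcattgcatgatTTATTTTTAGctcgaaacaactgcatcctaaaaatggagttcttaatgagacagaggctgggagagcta
Myom1 (chr17:71019307-71019556, plus strand): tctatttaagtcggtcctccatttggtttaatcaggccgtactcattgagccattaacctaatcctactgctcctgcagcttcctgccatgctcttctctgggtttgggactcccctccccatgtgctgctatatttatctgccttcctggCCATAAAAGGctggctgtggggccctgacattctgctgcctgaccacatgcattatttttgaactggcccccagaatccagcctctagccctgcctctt
Pygm (chr19:6384158-6384407, plus strand): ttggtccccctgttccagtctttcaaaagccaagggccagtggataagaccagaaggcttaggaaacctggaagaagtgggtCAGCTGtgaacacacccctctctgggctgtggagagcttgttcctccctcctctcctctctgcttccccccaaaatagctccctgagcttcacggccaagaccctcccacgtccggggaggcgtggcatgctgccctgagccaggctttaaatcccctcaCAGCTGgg
The Acta1 window held CAGCTG and a CArG box, Myom1 a CArG box, Casq2 a MEF2 site and Pygm CAGCTG at 2 places. Of the 42 genes, 34 had an entry in the table, with 41 windows. CAGCTG was in 17 of the 41 windows, against 13% of 32851 windows of all genes, the CArG box in 5 against 1.47%, and the MEF2 site in 7 against 2.92%. The looser E-box CANNTG, which includes CAGCTG, was in 35 of 41 windows, against 66.2% of all. These matches describe the sequences, and binding was not measured here.

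Signal differed more between arrays of a group in these genes than in genes at large. The median SD of log2(signal + 16) was 0.81 over the EOM arrays and 0.67 over the TA arrays for the 22 genes tested, against 0.57 and 0.55 for all genes tested. Without EOM 1 the EOM figures were 0.48 for the list and 0.31 for all genes. The genes of the list also had a lower level, with a median of 54.3 against 141.3 (mean log2 level turned back to signal), and the spread was not compared at matched level.

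EOM 1 and TA 6 held many of the highest values. EOM 1 had the highest EOM signal for 26 of the 42 genes (61.9%), where it did so for 47.5% of all genes, and EOM 6 for 0 (10.2% of all genes). Among the 26 were Myom2, Casq1, Atp2a1, Myl2, Mybpc1 and Myoz1. Casq1, Atp2a1 and Myl2 have a single probe set here. Further probe sets, all below the filter, had 147.9, 7.8 and 9.7 on EOM 1 for Myom2. Those of Mybpc1 had 115.2 and 8.2 there, and that of Myoz1 had 14.4. Of these values only 147.9 and 115.2 were the highest of the EOM arrays. Of the 14 fast genes 11 peaked there, and of the 10 slow genes 5. Pygm and Myom1 did not follow, at 10.2 and 7.1 on EOM 1. The median signal of all probe sets was also highest on EOM 1. The beta-actin control compares a 3′ with a 5′ probe set, and shorter RNA raises that ratio. Its log2 value was 6.70 on EOM 1 and 3.16 to 4.83 on the other EOM arrays, with 7.37 on TA 3 and 6.65 on TA 5. The part of the higher median and of RNA quality in these values was not tested.

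TA 6 had the highest TA signal for 12 of the 42 genes (28.6%), where it did so for 14.6% of all genes. TA 3 and TA 5 did so for 10 genes of the list each (23.8%), and for 32.9% and 23.3% of all genes. Of the 14 fast genes 9 peaked on TA 6, namely Actn3, Mybpc2, Myh1, Myl1, Mylpf, Myoz1, Tnnc2, Tnni2 and Tnnt3, and of the 10 slow genes 1, Tnnt1. Mybpc2, Myh1, Myl1, Tnnc2, Tnni2 and Tnnt1 were below the level filter. Acta1 (398.6) and Ckm (244.2) peaked there as well. Unlike TA 3 and TA 5, TA 6 had the lowest median over all probe sets of the 12 arrays, at 31.1. Over the genes tested, however, its median was the highest, at 168.2, against 133.2 to 165.3 on the other arrays. TA 6 also had the lowest log2 beta-actin ratio, 2.40, and the other 11 arrays had 3.16 to 7.37. The pattern was noticed after the values were seen, and the part of RNA quality in it was not tested. For Myh4, the fast heavy chain, the probe sets disagreed, and both were below the filter. The one that stands for the gene had 1.0 on TA 6, and the other had its highest TA value there, 71.9. Further probe sets of Ckm (4.7), Myoz1 (1.1), Myh1 (1.9) and Tnni2 (1.4) had their lowest TA value on TA 6. A different further probe set of Myh1 peaked there, at 103.7. A different further probe set of Tnni2 had 27.7 there and 57.5 on TA 3. All of these but that of Ckm were below the filter. Of 38 further fibre genes 1 had its highest TA signal on TA 6 (14.6% of all genes) and 20 on TA 3 (32.9%). On EOM 1, 22 of the 38 had their highest EOM signal (47.5% of all genes).

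**Figure D4:**
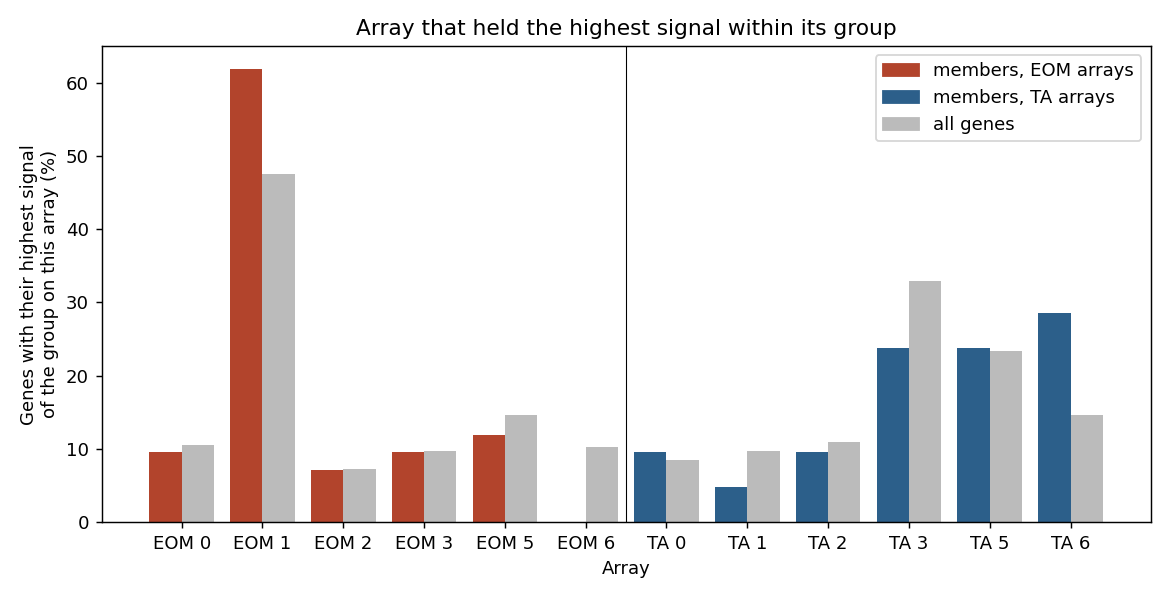
Share of genes (%) whose highest signal within their group lay on each array, for the 42 sarcomere and myofibre genes (coloured, EOM left and TA right) and for all 18193 named genes (grey). EOM 1 holds 61.9% of the list against 47.5% of all genes, and TA 6 28.6% against 14.6%.

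Other genes of the fibre were counted in the same fit. Of 40 further genes of sarcomere, triad and fibre metabolism 38 had a named probe set and 21 were tested. Of these 3 fell and 0 rose, where 6.81% of all genes tested fell. Their median was 0.02 and 10 of the 21 estimates were below 0, while the list had -0.68 and 16 of 22. The 3 were the tropomyosins Tpm2 (-2.72 ± 0.37, limma adjusted p = 8.55e-05) and Tpm1 (-2.21 ± 0.46, adjusted p = 0.00471) and alpha-sarcoglycan, Sgca (-1.44 ± 0.38, adjusted p = 0.0248). Both tropomyosin genes are also used by smooth muscle, and their probe sets disagreed. Of the further tested probe sets of Tpm2 one was at -3.12 and the others at 0.01 and -0.25, and those of Tpm1 were at -0.98 and -0.64 without passing.

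Of 16 listed genes of muscle stem cells and myoblasts, 10 were tested, and 2 fell and 0 rose: the laminin receptor subunit Itga7 (-2.25 ± 0.37, limma adjusted p = 0.000536) and the transcription factor Mef2c (-2.20 ± 0.36, adjusted p = 0.000481). Both are also known from vascular cells. Myod1, the myogenic determination factor, had 6.5 to 75.1 in EOM and 37.1 to 188.1 in TA (-1.28 ± 0.41, adjusted p = 0.0679). Pax7, which marks satellite cells, was below the filter, at 2.2 to 11 in EOM and 19.8 to 108.2 in TA, with no overlap, although its second probe set did overlap. In the fit with no level filter Pax7 fell (-1.47, adjusted p = 0.0260). Myf5 (0.4 to 15.6 in EOM, 2.2 to 67.2 in TA) and Myog (2.6 to 153.6 in EOM, 4.9 to 34.6 in TA) were below it too. For Myog, the differentiation factor, the value of 153.6 was on EOM 1, and the next EOM value was 28.0.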

How the data were processed

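RNA was amplified in 2 cycles, labelled with biotin and hybridized to Affymetrix Mouse 430 2.0 arrays, per the labels' protocols. The deposited values are signal intensities from Microarray Suite 5.0 (MAS5), per the labels, on a linear scale. All columns share 1 mean after trimming 2% from both ends, 150, so each array had been scaled to that value before deposit. Groups came from the sample titles. Depth does not apply to arrays, and precision is limited by 6 arrays per group. The genome build of the array is not given in the sources used here.

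From these values log2(signal + 16) was computed. Left out were 64 controls and, of the rest, the 40% lowest by mean log2 value, and limma 3.58.1 in R 4.3.3 compared EOM with TA (intensity trend, two-sided, Benjamini-Hochberg). The fit was tested on simulated data. Genes were named through the platform annotation where a probe set had 1 symbol. Values are given for genes past the threshold, the 3 of each role with the highest level, and the 6 with the widest range within a group, and the other genes by range. The genes, lists and alternatives were chosen with earlier results of these data known. P-values measure the spread between preparations. The filter was first applied to the mean linear signal, and was changed to the mean log2 value after those results had been seen. The first version is kept as an alternative. Other alternatives changed the constant, scaling, filter, weights, block, covariate, gene summary and arrays included.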

Additional observations from a re-analysis of the deposited data

Results flagged for a closer look

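Among the 84 sets of 6 arrays (42 genes in 2 groups) 11 had 1 array far from the others by Dixon's criterion on log2(signal + 16), which flags about 1 in 20 by chance. On EOM 1 it was the highest value for 7 genes: Myom2 at 493.4 (next 57.3), Myoz1 at 343.6 (next 79.9), Atp2a1 at 240.6 (next 51.6), Myl2 at 220.1 (next 43.2), Tnnt2 at 139.8 (next 24.5), Myl1 at 126.5 (next 18.9) and Mybpc2 at 9.3 (next 3.0). Of these Myl2, Tnnt2, Myl1 and Mybpc2 were below the level filter. Further probe sets of Myom2 (147.9, 7.8 and 9.7 on EOM 1), Myoz1 (14.4) and Tnnt2 (3.3 and 2.6) were below it too. Among them only the value of 147.9 was the highest of the EOM arrays. EOM 1 held the highest EOM signal for 47.5% of all genes, and the share of all genes flagged was not counted. Atp2a2 was the lowest of its group on EOM 1, at 1326 against 2611 for the next. Tcap was lowest on EOM 5, at 18.3 against 55.7. On TA 3 the highest values were those of Myoz2 at 92.0 (next 17.6) and Myh8 at 36.5 (next 7.3).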

How the results depend on the processing

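With all 12 arrays 2225 probe sets and 1419 genes passed, and 4 genes of the list, all lower. Median centring gave 1445 probe sets, 904 genes and 2 of the list, array weights 5488, 3264 and 7, and leaving out EOM 1, TA 3 and TA 5 gave 4709, 2866 and 7. Removing the lowest 60% left 2 of the list past the threshold, as only 10 were tested. With 1 array left out the counts ran from 1580 to 4386 probe sets, 1009 to 2689 genes and 3 to 6 of the list, all lower, each highest without EOM 1. The median of the list ran from -0.80 to -0.46. The replicate block gave 1632 probe sets, 1049 genes and 3 of the list, and 1 of the 6 EOM preparations correlated best with its own number in TA (correlations of deviations -0.317 to 0.157), so the samples were not treated as pairs. Filtering on the mean linear signal, the version run first and kept as an alternative chosen after seeing the data, gave 2234 probe sets, 1425 genes and the same 4 of the list, of 24 tested. No fit made a gene of the list higher. Of the 22 genes tested these changed sign, none passing: Atp2a2 to 0.14 and Myl4 to -0.0785 with the mean of all probe sets, Myom2 to 0.0040 and Ttn to 0.068 with the 3′ to 5′ covariate, and Tnnc1 to -0.0083 with a constant of 64, -0.093 without TA 0 and -0.066 without TA 2 (-0.093 to 0.39 with 1 array left out). Mybpc1 turned to -0.064 with array weights, -0.26 without EOM 1, TA 3 and TA 5, and -0.21 without EOM 1 (-0.21 to 0.55 with 1 array left out). Myoz1 turned to -0.072, -0.066 and -0.17 under these (-0.17 to 0.29). Casq1 turned to -0.13, -0.0069 and -0.35 under these (-0.35 to 0.25 with 1 array left out), and to -0.0013 with a constant of 1. Apart from the filter, the cause was not tested. Signal near background limits the 20 genes not tested and 6 of the tested ones, whose EOM median lay under the highest level the filter removed (26.86): Acta1, Actn3, Myom1, Pvalb, Pygm and Ttn.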
